A study of Mus musculus with 12 samples.

Results

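The numbered zinc-finger protein genes described here are the 168 protein-coding mouse genes with a symbol from Zfp500 to Zfp999, of 54532 genes listed in the count files. Members were chosen by symbol and by a summed count of at least 100 over the 12 libraries, and 2 symbols of the range were left out by the rule. A further 47 genes with such symbols fell under the summed count. Beyond that minimum the rule uses no measured value, but it was set with earlier results of these data known. RNA was sequenced from L929 cells, an established mouse fibroblast line, 6 hours after transfection, in 6 groups of 2 libraries. The groups were mock (untreated, by its label), HT-DNA transfection, hpRNA transfection, cGAMP stimulation, G3-YSD transfection and HSV transfection, with the abbreviations as the labels give them. The sensor cGAS makes cGAMP once it has bound DNA in the cytosol, and cGAMP activates STING. All groups share the line, the medium and the time, and the comparisons ask which transcripts differ between cells given a nucleic acid or cGAMP and untreated cells. The wording of the cell source is L929 for cGAMP, G3-YSD and HSV and a fibroblast line for the other 3 groups, although the cell line field gives L929 for all 12. The labels do not say how the duplicates were made, so p-values measure the spread between libraries, which may be technical. They also do not settle whether the digits in HSV 1 and HSV 2 are replicates or virus types.

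C2H2 zinc-finger proteins bind DNA through arrays of short modules, each of which holds a zinc ion between a pair of cysteines and a pair of histidines. Many carry a KRAB box, a short domain that binds Trim28 and through it the methyltransferase Setdb1, which places a repressive mark on histone H3. KRAB zinc-finger genes arose by repeated tandem duplication, lie in clusters, evolve fast, silence retroelements among other targets, and often have short-lived mRNAs.

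A KRAB box was found in the annotated protein of 105 members and not in 63. Boxes were searched by a pattern, so a member without a KRAB box is one in which none matched. A box that departs from the pattern would be missed. Members had a median of 10 finger motifs, with 12 in those with a KRAB box and 7 in those without, and the highest number was 33. In 7 members no finger matched the pattern searched. The genes lay on 18 chromosomes, 45 of them on chromosome 7 and 25 on chromosome 17. Chaining neighbours less than 500 kb apart gave 15 clusters of at least 3 members, which held 86 members, 71 of them with a KRAB box. Outside the clusters stood 82 members, of which 34 had a KRAB box. Clusters are named by chromosome, with letters in chromosome order where there are several. Levels are in CPM, the count divided by the library's total after the TMM correction for composition. Mean CPM over the 12 libraries ran from 0.536 to 228, with a median of 10.9. Per kilobase of exon the median level was 2.88 CPM, against 4.06 for all genes tested. It was 1.69 CPM per kilobase for members with a KRAB box and 4.74 for those without.

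Total counts were 12650790 to 18912400 per library, and 167 of the 168 members were detected in all 12 libraries. All 168 members passed the low-count filter. Members took 0.331% to 0.377% of all counts in the 8 libraries of the mock, HT-DNA, hpRNA and cGAMP groups, 0.411% and 0.402% in G3-YSD 1 and HSV 1, and 0.285% and 0.288% in G3-YSD 2 and HSV 2. These 4 libraries stood apart in other ways. G3-YSD 1 and HSV 1 had 26496 and 26241 genes detected, against 21635 to 22550 in the 8 libraries, and mitochondrial transcripts took 3.64% and 3.53% in G3-YSD 2 and HSV 2, against 2.03% to 2.52% elsewhere. By correlation across genes, all 12 libraries were closest to a library of another label with the same number. Of 15 fibroblast markers, 12 reached 1 CPM in every library, Thy1 and Lum stayed under 1 CPM and Dcn was at 0. Summed endothelial markers were 0.553 to 1.11 CPM in the 8 libraries and 5.68 to 11.6 CPM in the 4 labelled G3-YSD or HSV, and summed leukocyte markers 70.4 to 94.4 and 58.9 to 73.2 CPM. The part of these differences in the results below was not tested. In RNA from a whole culture, fewer cells of a type and less RNA per cell cannot be told apart.

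Zinc-finger genes were called higher and lower in the G3-YSD and HSV libraries. The share of members called lower was close to that of all genes in each of the 4 comparisons below. Against mock, 12 members rose and 7 fell in G3-YSD, and 10 rose and 8 fell in HSV (edgeR quasi-likelihood test, adjusted p under 0.05). In either direction that is 11.3% of the members in G3-YSD and 10.7% in HSV. Of all 16840 genes tested, 5.16% were called in G3-YSD (1.79% higher, 3.37% lower) and 5.2% in HSV (1.73% higher, 3.47% lower). Against cGAMP, which shares the wording of the cell source, 16 members rose and 6 fell in G3-YSD, beside a background of 5% (1.85% higher, 3.15% lower). In HSV, 14 rose and 6 fell against cGAMP, beside 5.08% (1.78% higher, 3.31% lower). Called members made up 13.1% of the 168 in G3-YSD and 11.9% in HSV against cGAMP. These 4 comparisons share control libraries pairwise, and G3-YSD or HSV libraries pairwise, and are not independent of each other. The 2 labels also had nearly the same profiles. Across genes, r was 0.9933 for G3-YSD 1 with HSV 1 and 0.9913 for G3-YSD 2 with HSV 2. Between the libraries of a label it was 0.876 for G3-YSD and 0.8748 for HSV. A call in both labels, or in all 4 comparisons, is therefore not an independent replication. The median log2 fold change of the 168 members against mock was 0.01 for G3-YSD and -0.01 for HSV, where the median of all genes was 0.11 and 0.10. With upper quartile scaling, which moved the median of all genes to 0.24 and 0.26 against mock, the split was 15 higher and 4 lower in G3-YSD and 13 and 4 for HSV. Over all genes, that scaling had 364 of 678 calls higher in G3-YSD and 347 of 651 in HSV against mock. TMM had 302 of 869 and 291 of 876. With upper quartile scaling against cGAMP, 375 of 670 and 360 of 657 calls over all genes were higher. For members, the split against cGAMP with that scaling was 19 higher and 4 lower in G3-YSD, and 18 and 4 for HSV. All 4 counts went to 0 when mock 1 or mock 2 (cGAMP 1 or cGAMP 2 in the comparisons with cGAMP) was left out, or when the 4 libraries of a comparison were fitted alone. Without G3-YSD 2 or HSV 2 they were 3 members each against mock and 7 and 6 against cGAMP.

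In G3-YSD against mock, 9 of the 105 members with a KRAB box rose and 1 fell, and 3 of the 63 without one rose and 6 fell. The same counts in HSV were 7 and 2 with a KRAB box, and 3 and 6 without. Against cGAMP they were 13 and 1 with the box and 3 and 5 without in G3-YSD, and 10 and 1 against 4 and 5 for HSV. Median log2 fold changes against mock were 0.19 and 0.14 for members with a KRAB box and -0.28 and -0.22 for those without, in G3-YSD and HSV. The difference between the classes was not tested. Among 142 zinc-finger genes numbered below 500, 5 rose and 2 fell in G3-YSD and 4 rose and 2 fell in HSV against mock. In total, 26 members were called in at least 1 of the 4 comparisons. Of the 17 called higher, 13 had a KRAB box, as 105 of all 168 members do, and 10 were called in all 4 comparisons. Of the 9 called lower, 2 had a KRAB box and 5 were called in all 4. Counted without a test, all 4 G3-YSD and HSV libraries lay above the other 8 for 32 members, 25 of them with a KRAB box, and below the other 8 for 35, 26 of them without one. The same held for 12.8% of all genes above and 15.3% below. With upper quartile scaling these counts were 42 above and 25 below, and the shares of all genes given here are for TMM only.

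**Figure D1:**
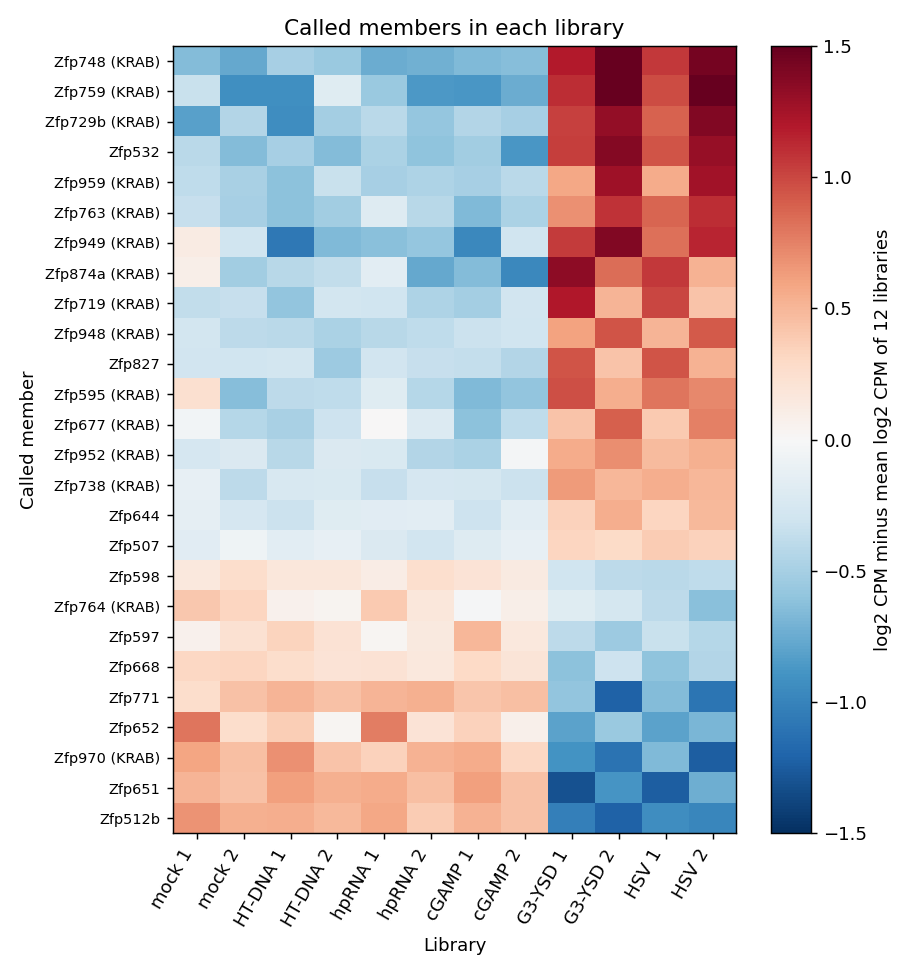
The 26 members called in at least 1 of 4 comparisons (rows, with KRAB marking a KRAB box) in the 12 libraries (columns), coloured by log2 CPM minus the member's mean log2 CPM over the 12 libraries; the colour scale ends at 1.5 in either direction. The 4 libraries labelled G3-YSD and HSV stand apart from the other 8, higher for the 17 members at the top and lower for the 9 at the bottom.

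The cluster on chromosome 13 (chr13:67038596-67687071, build mm10) held most of its members at higher levels in G3-YSD and HSV. Its 10 genes span 648.5 kb, 9 have a KRAB box, and the median number of fingers is 19.5. The summed level of the cluster was 56.7 to 74.3 CPM in the 8 libraries, 152 and 136 for G3-YSD and 142 and 134 for HSV, with no overlap. Median log2 fold changes of its members were 1.26 for G3-YSD and 1.08 for HSV against mock, and 4 members rose and 0 fell in each. Against cGAMP, 6 rose and 0 fell in each. For 8 of the 10 members all 4 libraries lay above the other 8. As for the members at large, 0 of these calls held without mock 1, mock 2, cGAMP 1 or cGAMP 2 in the comparisons that use them.

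The promoters of this cluster are shown because they share a stretch of letters. The longest stretch with 1 free position that all 9 promoters in the table hold is TTGTGGGAANTGTAGTC, and 12 of its letters read ACTACANTTCCC on the other strand. Each sequence is the 100 bases before the annotated start, 5′ to 3′ on the gene's strand, from the RefSeq promoter table (build GRCm38.p6), and capitals mark matches to ACTACANTTCCC on either strand. The first 5 are those of members that rose in at least 1 comparison, and Zfp953 is shown as a member whose libraries overlapped.
Zfp748 (chr13:67553153-67553252, minus strand): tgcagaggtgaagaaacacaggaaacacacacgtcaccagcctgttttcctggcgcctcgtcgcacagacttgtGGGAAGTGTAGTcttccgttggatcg
Zfp759 (chr13:67128128-67128227, plus strand): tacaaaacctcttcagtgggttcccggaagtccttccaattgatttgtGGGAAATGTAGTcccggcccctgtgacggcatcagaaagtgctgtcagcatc
Zfp738 (chr13:67683513-67683612, minus strand): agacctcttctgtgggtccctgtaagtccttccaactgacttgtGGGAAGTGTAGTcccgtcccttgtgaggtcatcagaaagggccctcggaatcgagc
Zfp595 (chr13:67332561-67332660, minus strand): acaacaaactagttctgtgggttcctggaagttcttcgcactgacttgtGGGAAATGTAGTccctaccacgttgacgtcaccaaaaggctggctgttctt
Zfp874a (chr13:67451625-67451724, minus strand): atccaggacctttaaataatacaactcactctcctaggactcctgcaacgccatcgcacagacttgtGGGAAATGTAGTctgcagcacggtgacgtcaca
Zfp953 (chr13:67360573-67360672, minus strand): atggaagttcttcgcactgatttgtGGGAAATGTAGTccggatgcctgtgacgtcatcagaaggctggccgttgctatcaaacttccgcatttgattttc
Zfp729b had no entry in the table. Both strings were read from these promoters, so their presence in all 9 is not a finding. The letters ACTACANTTCCC resemble the core of the motif known for the transcription factor Zfp143 and its partner Thap11. Windows of 300 bases (250 before to 50 after the start) were searched on both strands. The longer string occurs in 24 of 32851 promoters of all genes (0.0731%), or for 23 of 27025 genes (0.0851%). It occurs for 0 of 134 members outside the cluster and for 5 of 118 zinc-finger genes numbered below 500 (4.24%), both counted by gene. The string ACTACANTTCCC, which lies within it, occurs in 311 of the 32851 promoters (0.947%), or for 294 of the 27025 genes (1.09%). Among members, counted by gene, it was found for 17 of the 143 with a promoter in the table (11.9%). Outside the cluster that leaves 8 of 134 (5.97%), including 3 of 3 in the chr7-d cluster, whose members were not called in any comparison. It was found for 25 of 118 zinc-finger genes numbered below 500 (21.2%) and for 0 of 10 members that were called higher outside the chromosome 13 cluster. Zfp953 holds it too, so a match did not go with a higher level in every member. Over 36 pairs the 9 promoters were 53.7% to 82.3% identical, with a median of 58.0%. The palindrome TGACGTCA was found in 4 of the 9 and in 1.79% of all promoters, and the palindrome CACGTG in 0 of the 9 and in 7.15%. Counted by gene, the shares over the whole promoter set were 2.03% and 8.09%.

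Zfp748, with 23 fingers and a KRAB box (chr13:67538641-67553830), had the largest increase against mock among called members. It stood at 8.41 and 7.75 CPM in mock, 9.32 and 8.97 for HT-DNA, 7.87 and 8.01 for hpRNA, 8.33 and 8.43 for cGAMP, 29.9 and 38.1 for G3-YSD and 27.5 and 35.6 for HSV. The last 4 libraries lay far above a narrow range of the other 8. Zfp748 rose by a log2 fold change of 2.07 ± 0.19 (SE) in G3-YSD against mock (edgeR adjusted p = 0.0064) and 1.96 ± 0.19 for HSV (0.00584). Zfp759 was at 2.67 and 1.77 CPM in mock, 1.77 and 2.95 for HT-DNA, 2.28 and 1.85 for hpRNA, 1.84 and 2.01 for cGAMP, 7.26 and 11.1 for G3-YSD and 6.62 and 9.99 for HSV. Again the groups did not overlap, and the log2 fold change against mock was 2.04 ± 0.38 for G3-YSD (edgeR adjusted p = 0.0262). Zfp729b, with 30 fingers, had a lowest, median and highest level of 4.48, 6.00 and 6.45 CPM in the 8 libraries, 17.3 and 21.3 for G3-YSD and 15.7 and 22.3 for HSV. It rose by 1.79 ± 0.26 on the log2 scale in G3-YSD (edgeR adjusted p = 0.0143). Another gene shares 38.3% of its stretches of 100 bases, so reads could be divided between near-identical copies and its value is uncertain. Zfp738 moved less, from 13.3 to 16.1 CPM in the 8 libraries (median 14.6) to 27.2 and 24.6 for G3-YSD and 25.5 and 24.6 for HSV, a log2 fold change of 0.81 ± 0.15 for G3-YSD against mock (edgeR adjusted p = 0.0262).

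Other members of the cluster were called against cGAMP alone or not at all. Zfp595 was at 4.38 and 2.38 CPM in mock and 2.33 and 2.46 for cGAMP, against 7.20 and 5.38 for G3-YSD and 6.44 and 6.11 for HSV. The mock libraries differed from each other more than the cGAMP libraries did. Against cGAMP the log2 fold change of Zfp595 was 1.39 ± 0.32 for G3-YSD (edgeR adjusted p = 0.0454). Zfp874a had 2.44 and 1.59 CPM in mock, 1.46 and 1.17 for cGAMP, 5.79 and 4.08 for G3-YSD and 4.78 and 3.30 for HSV, with a log2 fold change of 1.90 ± 0.37 for G3-YSD against cGAMP (edgeR adjusted p = 0.0293). Its neighbour Zfp874b was at 1.96 to 3.81 CPM in the 8 libraries (median 2.57) and at 6.85, 10.0, 6.44 and 10.1 CPM in G3-YSD 1, G3-YSD 2, HSV 1 and HSV 2. Those 4 libraries also lay above the 8, but the adjusted p of edgeR was 0.083 for G3-YSD against mock. Zfp712 showed the same order without a call, at 0.908 to 1.88 CPM in the 8 libraries (median 1.41) and 2.70 to 3.55 CPM in the 4. Zfp729a was at 18.5 to 28.1 CPM in the 8 libraries and at 44.9, 18.5, 44.3 and 18.6 CPM in the 4, so only the libraries numbered 1 were high. Zfp953, the member without a KRAB box, was at 2.13 and 2.33 CPM in G3-YSD 1 and HSV 1 and at 0.308 and 0.165 CPM in G3-YSD 2 and HSV 2, on either side of the other 8.

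**Figure D2:**
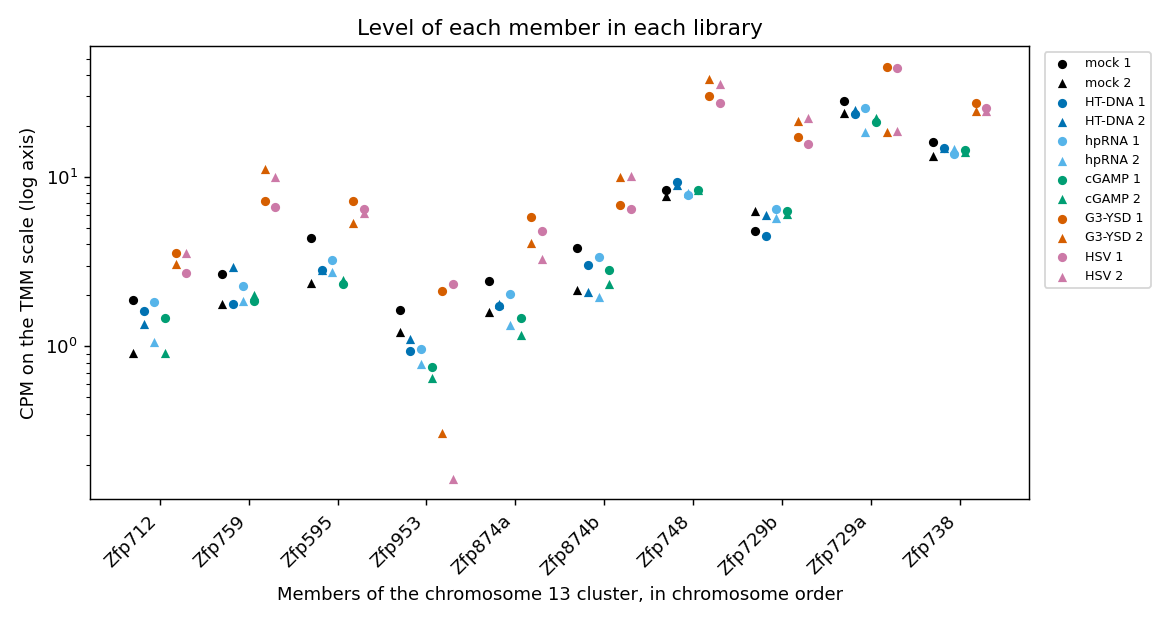
Level of the 10 members of the chromosome 13 cluster, in chromosome order, as CPM on the TMM scale (log axis); circles are libraries numbered 1, triangles libraries numbered 2, and colours the 6 labels. For 8 of the 10 genes the 4 libraries labelled G3-YSD and HSV lie above the other 8, and Zfp729a and Zfp953 are the exceptions.

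A few members of the 2 clusters on chromosome 17 also rose. In the cluster chr17-b (chr17:32765496-33307241, 7 members) 2 rose in G3-YSD and 1 for HSV against mock, and 0 fell. Zfp763 stood at 10.8 and 9.70 CPM in mock, 8.95 and 9.58 for HT-DNA, 12 and 10.3 for hpRNA, 8.65 and 9.86 for cGAMP, 22.1 and 29.1 for G3-YSD and 25.1 and 29.7 for HSV. The groups did not overlap, and the log2 fold change against mock was 1.32 ± 0.20 for G3-YSD (edgeR adjusted p = 0.0155) and 1.42 ± 0.20 for HSV (0.0151). Zfp952, its neighbour, was at 15.1 to 20.6 CPM in the 8 libraries and at 30.9 and 34.1 for G3-YSD and 29.2 and 30.5 for HSV. It rose by 0.86 ± 0.18 on the log2 scale in G3-YSD against mock (edgeR adjusted p = 0.0366), and in HSV the adjusted p was 0.0578. The member of this cluster with the most reads, Zfp871, did not do so, with 58.8 to 78.8 CPM in the 8 libraries and 70.0, 38.5, 75.0 and 38.0 CPM in G3-YSD 1, G3-YSD 2, HSV 1 and HSV 2. The larger cluster chr17-a (chr17:21383748-22867134) has 14 members, all with a KRAB box, and 1 rose and 0 fell against mock in each of G3-YSD and HSV. The median log2 fold change of the 14 was 0.17 for G3-YSD and 0.09 for HSV. The member that rose, Zfp948, was at 28.7, 30.5 and 32.9 CPM (lowest, median, highest) in the 8 libraries, 60.6 and 77.0 for G3-YSD and 56.7 and 75.5 for HSV. Its log2 fold change against mock was 1.12 ± 0.18 for G3-YSD (edgeR adjusted p = 0.0182). Zfp677 of the same cluster was called only in G3-YSD against cGAMP, at 3.79 and 4.48 CPM in cGAMP and 7.79 and 10.8 for G3-YSD. For 5 of the 14 all 4 libraries lay above the other 8. Each of these calls was lost without mock 1, mock 2, cGAMP 1 or cGAMP 2 in the comparisons that use them.

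Further members that rose stand outside these clusters, and the same loss without a control library applies to each. Zfp532, on chromosome 18 with 10 fingers and no KRAB box, was at 8.01 and 6.77 CPM in mock, 7.36 and 5.77 for cGAMP, 21.7 and 27.5 for G3-YSD and 20.4 and 26.3 for HSV. Its log2 fold change against mock was 1.73 ± 0.22 for G3-YSD (edgeR adjusted p = 0.0121). Zfp959, a KRAB gene of chromosome 17, was at 6.56 to 7.98 CPM in the 8 libraries, 15.1 and 24.3 for G3-YSD and 14.8 and 24.1 for HSV, a log2 fold change of 1.40 ± 0.29 for G3-YSD against mock (edgeR adjusted p = 0.036). In both labels the library numbered 2 was the higher. Zfp719, in the chr7-e cluster of 3 KRAB genes, went the other way between libraries, at 39.6 and 24.5 CPM in G3-YSD and 34.6 and 23.2 for HSV, all above 11.4 to 14.3 CPM in the 8. It was called against mock in G3-YSD (log2 fold change 1.25 ± 0.28, edgeR adjusted p = 0.043). Zfp827, whose human counterpart recruits the NuRD complex to telomeres, was at 23.5 to 28.3 CPM in the 8 libraries, 65.8 and 46.0 for G3-YSD and 66.1 and 49.2 for HSV. Its log2 fold change against mock was 1.04 ± 0.21 for HSV (edgeR adjusted p = 0.0318). Zfp644, a partner of the histone methyltransferases G9a and GLP, was among the smaller changes, from 42.4 to 48.1 CPM in the 8 libraries to 67.3, 77.2, 66.3 and 74.0 CPM in the 4. Zfp507 was called in HSV against cGAMP only, at 44.0 and 46.4 CPM in cGAMP and 65.4 and 63.9 for HSV. Zfp949 was called against cGAMP, at 1.84 and 2.92 CPM in cGAMP, 7.44 and 9.46 for G3-YSD and 6.38 and 7.93 for HSV.

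In most members that fell, 7 of 9, no KRAB box was found, as in 63 of all 168 members. Zfp512b (chr2:181582103-181592803, 4 fingers) was at 27.6 and 25.1 CPM in mock, 25.3 and 24.3 for HT-DNA, 25.8 and 22.5 for hpRNA, 24.8 and 23.4 for cGAMP, 8.50 and 7.46 for G3-YSD and 9.07 and 8.75 for HSV. The groups did not overlap, and the library numbers made little difference. It fell by 1.72 on the log2 scale (SE 0.15) in G3-YSD against mock (edgeR adjusted p = 0.0064) and by 1.56 (SE 0.15) in HSV (0.00584). Zfp651 (chr9:121759330-121771742, 7 fingers) was at 71.1 and 68.1 CPM in mock, 76.9 and 72.7 for HT-DNA, 73.7 and 68.6 for hpRNA, 76.9 and 67.7 for cGAMP, 20.3 and 27.1 for G3-YSD and 21.3 and 30.1 for HSV. It fell by 1.56 (SE 0.20) in G3-YSD against mock (edgeR adjusted p = 0.0128). Zfp970 is a KRAB gene that fell, from 11.1 to 14.4 CPM in the 8 libraries to 4.78 and 4.15 for G3-YSD and 5.64 and 3.80 for HSV, a log2 fold change of -1.52 ± 0.24 for G3-YSD (edgeR adjusted p = 0.0169). It shares 17.4% of its stretches of 100 bases with another gene, so its value is uncertain. Zfp652, a transcriptional repressor that works with Cbfa2t3, differed between the mock libraries, at 86.0 and 59.0 CPM, and was at 62.4 and 51.8 for cGAMP, 28.3 and 33.4 for G3-YSD and 28.3 and 30.6 for HSV. It was called against mock, by -1.23 ± 0.26 for G3-YSD on the log2 scale (edgeR adjusted p = 0.0355), and not against cGAMP (0.0892). It shares 11.1% of its stretches. Zfp598, the ubiquitin ligase that detects collided ribosomes, moved little and evenly, from 110 to 122 CPM in the 8 libraries to 83.0 and 77.4 for G3-YSD and 77.1 and 78.5 for HSV. Its log2 fold change against mock was -0.55 ± 0.12 for G3-YSD (edgeR adjusted p = 0.0381) and -0.60 ± 0.12 for HSV (0.0289). Zfp597 was called against cGAMP in G3-YSD only, at 15.5 and 12.3 CPM in cGAMP and 8.38 and 7.54 for G3-YSD. As above, 0 of these calls held without one of the control libraries.

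The cluster chr7-f (chr7:127233061-127885996) held 10 members, 4 with a KRAB box, and was the only 1 of the 15 clusters with members that fell in the 4 comparisons. Its summed level was 185 to 199 CPM in the 8 libraries, 149 and 126 for G3-YSD and 149 and 125 for HSV. Against mock, 2 members fell in G3-YSD and 3 for HSV, and 0 rose. The median log2 fold change was -0.67 for G3-YSD and -0.81 for HSV, and for 5 of the 10 all 4 libraries lay below the other 8. Zfp771 had 17.1 and 19.3 CPM in mock, 20.4 and 19.3 for HT-DNA, 20.4 and 20.7 for hpRNA, 19.0 and 19.5 for cGAMP, 9.45 and 6.15 for G3-YSD and 9.07 and 6.69 for HSV. It fell by 1.22 on the log2 scale (SE 0.23) in G3-YSD against mock (edgeR adjusted p = 0.0273). Zfp668, a protein known from DNA repair, was at 10.0 to 11.2 CPM in the 8 libraries and 5.85, 7.23, 5.89 and 6.61 CPM in the 4, a log2 fold change of -0.77 ± 0.17 for G3-YSD (edgeR adjusted p = 0.0447). Zfp764, which has a KRAB box, was called in HSV against mock only, at 10.6 and 10.0 CPM in mock and 6.13 and 5.20 for HSV. Zfp768 was low in the libraries numbered 2, with 19.5 and 3.54 CPM in G3-YSD and 18.9 and 4.38 for HSV against 21.2 to 23.9 CPM in the 8, and was not called. The 2 members with the most reads had levels that overlapped between the groups. Zfp646 was at 49.4 to 59.5 CPM in the 8 libraries and 46.3 to 51.9 CPM in the 4. Zfp629 was at 25.5 to 30.1 CPM in the 8 and 18.8 to 26.5 CPM in the 4. The calls of this cluster were also lost without mock 1, mock 2, cGAMP 1 or cGAMP 2 in the comparisons that use them.

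**Figure D3:**
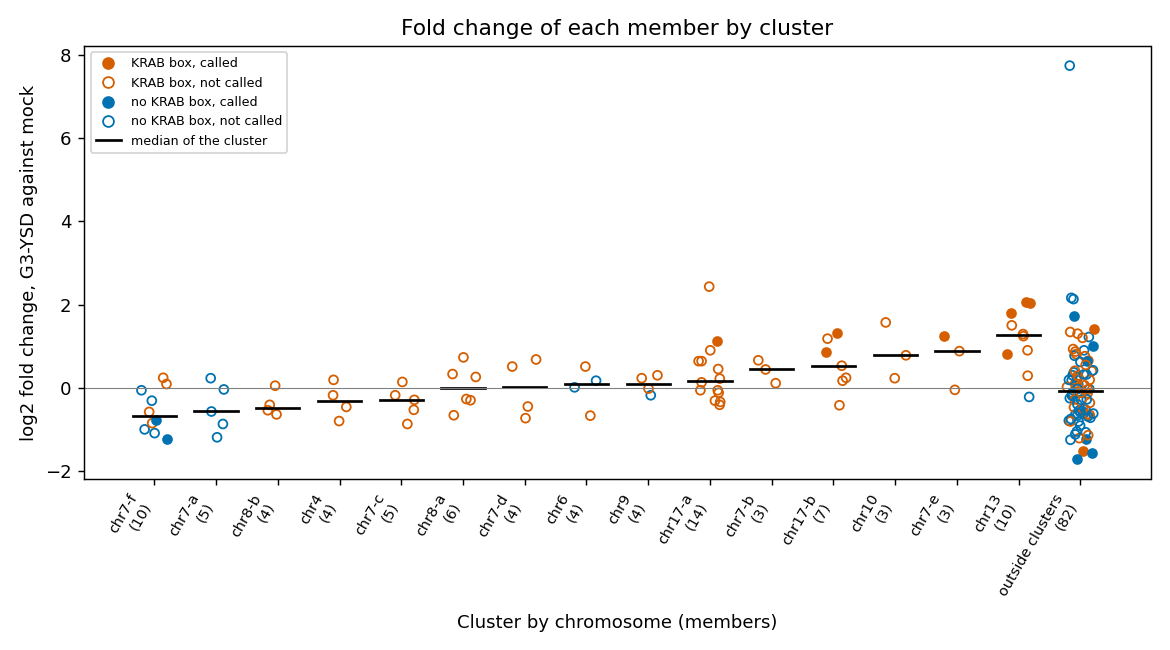
Log2 fold change of each of the 168 members in G3-YSD against mock, by cluster in order of the cluster median (black bars) with members outside clusters at the right; filled points were called at an adjusted p under 0.05, orange marks a KRAB box and blue none. The chr13 cluster has the highest median, 1.26, and chr7-f the lowest, -0.67. The one point near 8 is Zfp957, which was not called and passed the summed count through G3-YSD 1 and HSV 1.

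In 10 of the 15 clusters no member was called in any of the 4 comparisons. Median log2 fold changes in G3-YSD against mock were -0.57 in chr7-a, -0.48 in chr8-b, -0.32 in chr4, -0.29 in chr7-c and 0.78 in chr10. The 5 members of chr7-a have no KRAB box. There, Zfp628 was at 18.1 to 22.1 CPM in the 8 libraries, 13.9 and 6.84 for G3-YSD and 15.3 and 7.18 for HSV. Zfp865, in the same cluster, was at 37.9 to 43.0 CPM in the 8 and 51.9, 29.8, 49.0 and 29.1 CPM in the 4, so the libraries numbered 1 were high and those numbered 2 low. It shares 12.8% of its stretches of 100 bases with another gene. In chr7-d, Zfp568, a KRAB repressor of the placental Igf2 promoter, was at 56.8 to 68.4 CPM in the 8 libraries, 114 and 61.8 for G3-YSD and 114 and 64.6 for HSV, with only the libraries numbered 1 above the 8. Zfp790 of that cluster was at 13 to 16.4 CPM in the 8 and 8.34 to 11.7 CPM in the 4. In chr9, Zfp809, which silences murine leukaemia virus in stem cells, was at 17.6 to 21.7 CPM in the 8 libraries, 27.5 and 19.7 for G3-YSD and 28.9 and 21.4 for HSV. For this gene too the libraries numbered 1 were the high ones. Its neighbour Zfp653 was at 13.8 to 17.9 CPM in the 8 and 11.2 to 15.5 CPM in the 4. The chr6 cluster holds Zfp746, also known as PARIS, a repressor linked to Parkinson's disease, at 64.9 to 73.9 CPM in the 8 libraries, 65.9 and 92.7 for G3-YSD and 66.1 and 90.6 for HSV. Here the libraries numbered 2 were high. Zfp777, beside it, was at 17.4 to 19.8 CPM in the 8 and 8.92 to 16.3 CPM in the 4. In chr8-a, Zfp869 was at 12.4 to 15.9 CPM in the 8 libraries and at 17.8 to 20.4 CPM in the 4, without overlap, and Zfp866 at 15 to 18 and 12.4 to 15.8 CPM. In chr10, Zfp938 was at 7.13 to 9.60 CPM in the 8 libraries, 18.6 and 10.3 for G3-YSD and 19.0 and 11.1 for HSV. All 4 lay above the 8, although none of these genes was called.

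The members with the most reads mostly lie outside clusters and lack a KRAB box. Zfp706, which encodes a very short protein, had the highest mean CPM, 228 CPM or 45.8 CPM per kilobase. It was at 248 to 267 CPM in the 8 libraries, 189 and 140 for G3-YSD and 188 and 141 for HSV, without overlap, and was not called (log2 fold change -0.67 ± 0.18 for G3-YSD against mock, edgeR adjusted p = 0.0735). Zfp609 had a like order, at 115 to 133 CPM in the 8 libraries, 73.2 and 40.1 for G3-YSD and 75.2 and 40.4 for HSV (-1.12 ± 0.33, edgeR adjusted p = 0.0928). For Zfp740 the 8 libraries spanned 125 to 172 CPM and the 4 spanned 75.7 to 105 CPM. These 3 genes were lower in all 4 libraries than in any of the 8, and most in the libraries numbered 2. Zfp638, which takes part in silencing unintegrated retroviral DNA, was at 88.8 to 100 CPM in the 8, 102 and 135 for G3-YSD and 93.8 and 136 for HSV. Zfp664 was at 138 to 171 CPM in the 8 and 80.3 to 136 CPM in the 4. Both had their widest difference from the 8 in the libraries numbered 2. Zfp932, a KRAB protein that binds retroelements, was at 9.52 to 13.1 CPM in the 8 libraries, 11.3 and 5.23 for G3-YSD and 11.6 and 5.86 for HSV. It shares 18.5% of its stretches of 100 bases with another gene, so its value is uncertain. Zfp703, a regulator of breast epithelial growth, was at 16.5 to 23.9 CPM in the 8 libraries and 14.9 to 17.6 CPM in the 4.

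In a list of 22 corepressors and chromatin factors that KRAB proteins work with, 0 were called in each of the 7 comparisons. With 5.16% of all genes called in G3-YSD and 5.2% in HSV against mock, a list of this size is too short to read a count of 0 as a result. The median log2 fold change was -0.08 for G3-YSD and -0.05 for HSV against mock. Trim28, the scaffold that binds KRAB boxes, was at 298 and 327 CPM in mock, 338 and 322 for G3-YSD and 306 and 320 for HSV. Its groups overlapped in G3-YSD and HSV alike, with a log2 fold change of 0.08 ± 0.11 for G3-YSD (edgeR adjusted p = 0.685). Setdb1 was at 75.7 to 83.9 CPM in the 8 libraries, 58.2 and 64.3 for G3-YSD and 53.8 and 62.4 for HSV, a log2 fold change of -0.43 ± 0.13 for G3-YSD against mock (edgeR adjusted p = 0.103). Cbx5, which encodes the heterochromatin protein HP1 alpha, was at 553 to 734 CPM in the 8 libraries, 420 and 282 for G3-YSD and 428 and 282 for HSV. All 4 lay below the 8, with a log2 fold change of -0.95 ± 0.26 for G3-YSD against mock (edgeR adjusted p = 0.0779). Atf7ip of the same list went the other way, at 70.4 to 84.1 CPM in the 8 libraries. It was at 99.1 and 191 CPM for G3-YSD and 89.7 and 200 CPM for HSV. Its log2 fold change was 0.88 ± 0.39 for G3-YSD against mock (edgeR adjusted p = 0.213).

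No member was called in HT-DNA, hpRNA or cGAMP against mock. In each, 0 of the 168 members and 0% of all genes passed edgeR's adjusted threshold, and DESeq2 called 0 members. At an unadjusted p under 0.05 edgeR gave 2 members in HT-DNA, 0 for hpRNA and 1 for cGAMP, beside 62, 58 and 99 of all genes. Zfp949 was the lowest of these by p in HT-DNA, at 3.92 and 2.93 CPM in mock and 1.72 and 2.27 for HT-DNA (log2 fold change -0.78 ± 0.31). Median log2 fold changes of the members were -0.08, -0.04 and -0.07 for HT-DNA, hpRNA and cGAMP. More members lay wholly below mock than above it, without overlap between the libraries. These were 18 above and 37 below in HT-DNA (all genes 13.8% and 14%), 13 and 28 for hpRNA (10.5% and 10.3%) and 10 and 40 for cGAMP (14.9% and 15.1%). In G3-YSD against mock 43 were above and 49 below (24.4% and 22.7%), and in HSV 48 and 52 (24.7% and 22.8%). Against cGAMP the counts were 56 and 49 for G3-YSD (24.9% and 24%) and 54 and 47 for HSV (25.1% and 24.1%). With 2 libraries against 2 the smallest two-sided exact permutation p is 0.333, so no such order passes a test by itself.

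Some members differed more between the libraries of a label than between labels. Between G3-YSD 1 and G3-YSD 2, 37 members were more than 2-fold higher in library 1 and 6 more than 2-fold lower (all genes 23.4% and 11.1%). In HSV the counts were 33 and 8 (22.9% and 11.5%). Within the other labels few members passed 2-fold. They were 1 higher and 2 lower in mock 1 (all genes 2.22% and 4.61%), 0 and 0 for HT-DNA 1 (1.94% and 4.2%), 1 and 0 for hpRNA 1 (1.79% and 3.81%) and 0 and 3 for cGAMP 1 (1.82% and 4.24%). In both labels alike, 30 members were past 2-fold higher and 5 past 2-fold lower in library 1, beside 19.9% and 8.85% of all genes. Taken as shares of the members, the counts for G3-YSD, for HSV and for both were below those of all genes in each direction. By the median, however, members leaned further to library 1 than all genes did. Their median log2 difference was 0.38 in G3-YSD and 0.34 in HSV, against 0.06 and 0.04 for all genes. Of the 168 members, 116 and 111 were higher in library 1, against 8765 and 8685 of the 16840 genes. Neither contrast with all genes was tested. Zfp945, a KRAB gene with 18 fingers in chr17-a, was at 13.7 and 27.2 CPM in mock, 20.5 and 18.5 for HT-DNA, 14.5 and 27.5 for hpRNA, 20.8 and 18.3 for cGAMP, 213 and 7.15 for G3-YSD and 204 and 7.93 for HSV. That is a 29.3-fold and 25.4-fold difference between library 1 and library 2, with library 2 below and library 1 above the other 8. Zfp655 was at 77.2 to 90.8 CPM in the 8 libraries, 248 and 24.1 for G3-YSD and 237 and 23.0 for HSV, and Zfp672 at 12.5 to 17.4 CPM in the 8, 126 and 11.7 for G3-YSD and 108 and 12.2 for HSV. Zfp800 was at 16.2 to 21.4 CPM in the 8, 39.1 and 6.38 for G3-YSD and 33.8 and 4.29 for HSV. Zfp593, which acts in maturation of the large ribosomal subunit, was at 0.853 to 2.01 CPM in the 8, 4.13 and 0.384 for G3-YSD and 3.68 and 0.165 for HSV. Zfp622, which acts in the same pathway, was high in library 1 only, at 225 and 86.3 CPM in G3-YSD and 218 and 85.9 for HSV against 75.3 to 94.4 CPM in the 8. Zfp957 was nearly absent from the 8 libraries, at 0 to 0.307 CPM, and was at 15.1 and 0.692 for G3-YSD and 12.3 and 0.743 for HSV. Its fitted log2 fold change in G3-YSD, 7.74 ± 2.15, had an edgeR adjusted p of 0.0802.

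The opposite order was rarer. Zfp608, a chromosome 18 gene related to Zfp609, was at 38.4 and 29.3 CPM in mock, 33.8 and 25.9 for HT-DNA, 38.9 and 29.2 for hpRNA, 31.3 and 28.6 for cGAMP, 23.3 and 274 for G3-YSD and 23.2 and 276 for HSV. In library 2 of G3-YSD and HSV it was 11.7-fold and 11.9-fold higher than in library 1, and library 1 lay below the other 8. Zfp975 was at 2.59 to 4.03 CPM in the 8 libraries, 4.13 and 12.7 for G3-YSD and 4.41 and 12.9 for HSV, and it shares 10.9% of its stretches. Zfp940 was at 1.17 to 2.38 CPM in the 8, 1.59 and 4.84 for G3-YSD and 1.16 and 4.29 for HSV. None of these members was called, with a standard error of 1.53 for Zfp945 and 1.19 for Zfp608 on the log2 scale in G3-YSD against mock. The libraries of each label also differed in genes detected and in the mitochondrial share, as given above, and the part of these in the differences was not tested.

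**Figure D4:**
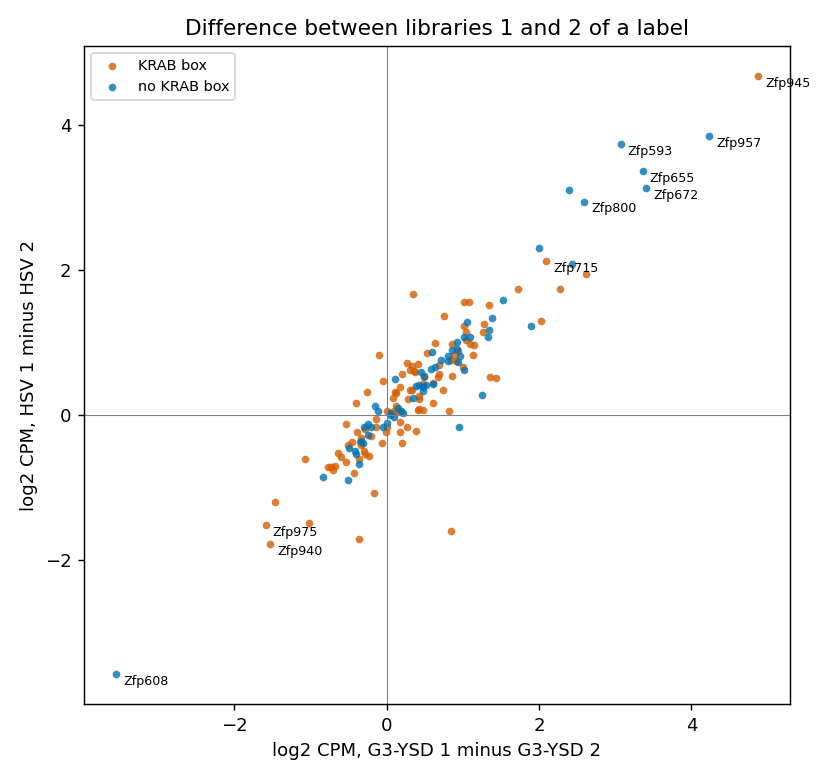
Difference in log2 CPM between libraries 1 and 2 of G3-YSD (horizontal axis) and of HSV (vertical axis) for the 168 members, with orange for a KRAB box and blue for none. Points run from Zfp608 at the lower left to Zfp945 at the upper right; 35 members lie past 2-fold in the same direction in both labels, of 43 in G3-YSD and 41 in HSV, and Zfp870 goes opposite ways, at 0.84 and -1.60.

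At the summed count of 100, the members just inside were Zfp964 with 102 counts and Zfp870 with 118, and the genes just outside were Zfp853 with 82 and Zfp981 with 76. Zfp964 had 5 to 13 counts in each library and Zfp870 5 to 21. Zfp870 had a log2 fold change of 1.62 ± 0.67 for HSV against mock and was not called (edgeR adjusted p = 0.186).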

How the data were processed

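PolyA RNA of 12 libraries was read in pairs of 150 bases on an Illumina instrument, per the labels' protocols. The authors deposited raw counts per Ensembl gene. Reads were handled with HISAT2 and HTSeq on mm10, per the submitters' processing notes. No source used here gives the strand setting or annotation, so overlapping and antisense genes could share reads. Symbols, positions and coding sequences came from GENCODE M21, which 54495 of the 54532 gene IDs matched. KRAB boxes and fingers were found by pattern in the translated coding sequences. Promoters came from the RefSeq table (GRCm38.p6), where 143 members had an entry.

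Counts were tested in R 4.3.3 with edgeR 4.0.16: default filter (16840 genes kept), TMM, a quasi-likelihood fit of all 12 libraries with 1 term per label (6 residual degrees of freedom), Benjamini-Hochberg adjustment over all genes and a threshold of 0.05. The steps were tested on simulated data with the same spread for every gene. Those data held no wide differences between the libraries of a label, so such differences were not covered. Alternatives were DESeq2 1.42.0, other scalings, no filter, a replicate block, fewer libraries and other cluster distances. No overlap means that all libraries of a group lie on one side. Differences within a label used a prior count of 2. Errors of fold changes are standard errors.

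The members and lists were chosen with earlier results of these data known. Named members are those with the most reads overall and in each cluster, up to 8 called per direction and comparison with no overlap, those with a known role, those that differed most between libraries 1 and 2, and those at the summed count limit. Beyond that rule, Zfp712, Zfp595, Zfp953, Zfp874b, Zfp507, Zfp644, Zfp677 and Zfp768 were named after their values were seen. So were Cbx5 and Atf7ip of the corepressor list. The count of 4 libraries apart from 8 was added after seeing the data.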

Additional observations from a re-analysis of the deposited data

How the results depend on the processing

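Counts of members called rose with DESeq2, to 35 in G3-YSD and 33 in HSV against mock and to 39 and 35 against cGAMP. The share of all genes called rose too, to 13% and 13.5% against mock and to 12.2% and 12.1% against cGAMP. With the 4 libraries of a comparison alone the counts were 0, 0, 0 and 0. Leaving out 1 library gave 0 to 16 members in G3-YSD and 0 to 16 in HSV against mock, and 0 to 18 and 0 to 15 against cGAMP, where 1 remaining library is assumed to vary like the others. Over all genes the count was also 0 without mock 1 or mock 2, and the cause was not tested. RLE and upper quartile scaling and the fit without a filter kept these counts within 1.5 times. A replicate block adds the number in the title as a term. With it, 24 and 23 members were called against mock and 24 and 21 against cGAMP. Of all genes, 7.19% and 7.21% were then called against mock and 6.78% and 6.41% against cGAMP. The labels do not say that numbers pair libraries. Deviations of same-numbered libraries correlated at -0.36 for G3-YSD and HSV with mock, -0.32 with cGAMP, and 0.37 to 0.65 among the other labels.

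Of 71 named calls 0 reversed; all 71 held with DESeq2 and with the block, 68 with RLE scaling, 60 with upper quartile scaling and 55 without a filter. Members past 2-fold between mock 1 and mock 2 numbered 1 by library total, 1 with upper quartile scaling and 1 with a prior count of 5, and between cGAMP 1 and cGAMP 2 the prior count of 5 gave 1. Clusters numbered 14 at 250 kb and 16 at 1000 kb. The members nearest the summed count of 100 had 5 to 21 counts per library, where counting error is widest; what change could be detected there was not tested.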

Other observations

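Members with a KRAB box were somewhat higher in library 1 than in library 2 of mock and hpRNA. Of 105 such members, 81 were higher in mock 1 and 77 in hpRNA 1, with median log2 differences of 0.18 and 0.17. Among the 63 members without a KRAB box, 33 and 39 were higher, with medians of 0.02 and 0.03. In HT-DNA and cGAMP the medians of members with a KRAB box were 0.00 and -0.02. In G3-YSD and HSV they were 0.31 and 0.26, and members without the box had larger medians, 0.52 and 0.43. Zinc-finger genes numbered below 500 had medians of 0.12 in mock and 0.06 in hpRNA. The lean to library 1 was thus not particular to members with a KRAB box or to these 2 labels. Over all genes tested, the median difference was 0.00 in mock, 0.00 in hpRNA, 0.06 in G3-YSD and 0.04 in HSV. In the chromosome 13 cluster, Zfp712 was at 1.88 and 0.915 CPM in mock 1 and mock 2, Zfp874b at 3.81 and 2.14 CPM, and Zfp595 at 4.38 and 2.38 CPM. These values are a description with no test.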
